A study of Mus musculus with 6 samples.

Results

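The Bcl2 family of apoptosis regulators was examined in mouse embryonic stem cells (mESCs) by RNA-seq. The 10 members were Bcl2, Bcl2l1, Mcl1, Bak1, Bcl2l11, Bmf, Bid, Bad, Bik and Hrk, taken by gene symbol from a table of 28584 symbols, and all 10 were found. The cells came from a line derived from a C57BL/6 × 129S6 blastocyst, which was grown on growth-arrested mouse embryonic fibroblast feeder cells with serum and LIF for 5 passages and then kept for 10 more passages under 3 conditions. LIF-ESCs received basic serum medium with 1000 U/mL LIF, OSM-ESCs were given OSM instead of LIF, and -LIF-ESCs were kept in the basic medium with neither cytokine (called without cytokine here). Each group had 2 libraries from this 1 line, so the p-values describe the spread between these libraries and not between lines. The authors saw only differentiated clones, of large and flat cells, in -LIF-ESCs at these passages. In comparisons with that group, cytokine and state of the cells therefore cannot be told apart. The report asks how the survival machinery of the cells stood under each condition.

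Proteins of the Bcl2 family decide whether the mitochondrial outer membrane is opened, the step that releases cytochrome c and starts the caspases. Anti-apoptotic members such as Mcl1 hold the pore-forming effectors Bak1 and Bax in check, while BH3-only members, named for the short helix that they share with the rest of the family, occupy the anti-apoptotic proteins or activate the effectors. Embryonic stem cells are known to be close to the apoptotic threshold, and many members are controlled by phosphorylation, cleavage or rapid turnover, which an RNA level does not show.

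Levels are given in TPM, a measure of reads per length of gene that is scaled to the same sum in each library. Reads recovered from the TPM came to between 20712939 and 28994417 per library. The labelled cell type was checked against markers. Of 12 embryonic stem cell markers, 10 were higher with LIF and 10 with OSM than without cytokine, and 1, Nanog, was lower in both, at a mean of 433 TPM without cytokine, 290 TPM with LIF and 261 TPM with OSM. Their summed level was 5204 to 5227 TPM without cytokine, 7142 to 7209 TPM with LIF and 6692 to 6701 TPM with OSM, with no marker at 0. Much of each sum was Dppa5a, which was not called, at means of 2942, 3060 and 2901 TPM. The median marker was at 184 and 169 TPM without cytokine, 339 and 336 TPM with LIF and 298 and 295 TPM with OSM. Markers of other cells moved with the groups. The 20 fibroblast markers summed to 468 to 497 TPM without cytokine, 842 to 843 TPM with LIF and 1278 to 1279 TPM with OSM, and 1 of them, Fap, was at 0 in both -LIF-ESC libraries. Most of the sum without cytokine was Tagln, at 365 and 343 TPM, which was at 165 and 171 TPM with LIF and 282 and 277 TPM with OSM. Their median was 2.26 and 1.46 TPM without cytokine, 16.4 and 16.5 TPM with LIF and 21.3 and 21.5 TPM with OSM. Of the 19 fibroblast markers tested, 17 were higher and 2 lower with LIF than without cytokine, as were 17 and 2 with OSM. For comparison, 42.2% of all genes tested were higher and 25.9% lower with LIF, and 42.9% and 25.4% with OSM. The 6 trophectoderm and epithelium markers analysed summed to 2339 to 2357 TPM without cytokine and to between 34.2 and 50.2 TPM in the other libraries. All 6 were lower in both cytokine groups. Nearly all of the sum without cytokine was the keratin genes Krt8, Krt18 and Krt19, at means of 982, 765 and 564 TPM. Cdx2, Gata3 and Hand1 were at means of 4.12, 4.56 and 27.5 TPM there. The 7 primitive endoderm markers came to between 9.36 and 10.6 TPM without cytokine, 28.9 and 29.1 TPM with LIF and 22.2 and 23.1 TPM with OSM. Of the 6 tested, all were higher with LIF and 4 with OSM, where Sox17 and Dab2 were not called. Dab2 held much of the sum without cytokine, at means of 6.17, 8.10 and 6.73 TPM in -LIF-ESCs, LIF-ESCs and OSM-ESCs. Foxa2, below the filter on low values, had means of 0.829, 0.552 and 0.557 TPM. Pdgfra is also counted among the fibroblast markers. In these bulk libraries, fewer cells of a type and less RNA per cell cannot be told apart, and the part of these other cells in the results on the Bcl2 family was not tested.

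Compared with -LIF-ESCs, 5 members (Mcl1, Bcl2l1, Bid, Bad and Hrk) were higher and 4 (Bak1, Bcl2l11, Bmf and Bik) were lower with LIF, and the same 5 and 4 were higher and lower with OSM. Only Bcl2 did not pass the test in either comparison. A member was called at an adjusted p under 0.05 in limma, fitted on log2(TPM + 1) to the 18556 genes that reached 1 TPM in 2 or more libraries. Among all these genes, 68.1% were called with LIF, 42.2% as higher and 25.9% as lower, and 68.3% with OSM, 42.9% as higher and 25.4% as lower. Lack of overlap with the -LIF-ESC libraries was more common still, in 84.2% of all these genes with LIF and 83.9% with OSM. It was seen in 10 and 9 members. When the change had also to reach 1 on the log2 scale, Mcl1 and Hrk were left as higher and Bik as lower in each comparison. With LIF this rule called 21.4% of all genes, 13.3% as higher and 8.09% as lower, and with OSM 22.0%, 14.2% as higher and 7.86% as lower. The median log2 fold change of the 10 members was 0.01 with LIF and 0.22 with OSM, and that of all genes tested 0.17 and 0.18. This general shift came to 0.00 and 0.01 once libraries were rescaled by their median ratio, a step that removes such a shift by design. Small rises have to be seen against the shift. Of all calls, 61.9% with LIF and 62.8% with OSM were rises, and 50.3% and 50.4% after rescaling. With 2 libraries a group, permuting the labels cannot give a p under 0.05, and the p-values therefore rest on the model. Both comparisons share the -LIF-ESC libraries and are not independent of each other.

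**Figure D1:**
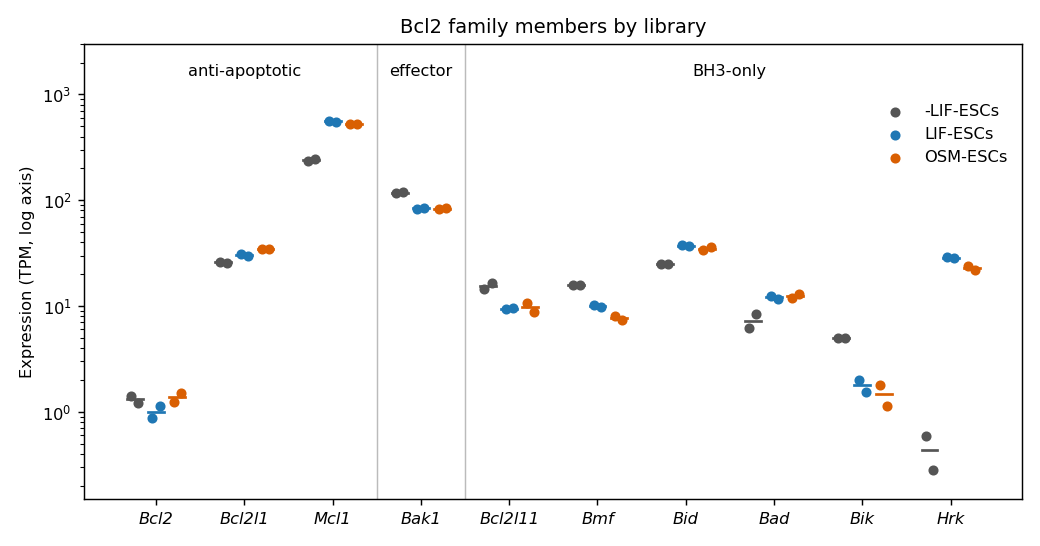
Expression of the 10 Bcl2 family members in TPM on a log axis, with a point for each of the 2 libraries of a group and a bar at the group mean. Hrk lies under 1 TPM in both -LIF-ESC libraries and above 20 TPM in all other libraries, and Mcl1 is the most abundant member in every library.

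Among the anti-apoptotic members, Mcl1 carried most of the RNA. Mcl1 encodes a short-lived guardian protein that binds Bak1 and is needed by many early embryonic cells. The gene is on the plus strand of chromosome 3 of GRCm38 from 95658788 to 95663176. It was at 234 and 247 TPM without cytokine, 565 and 548 TPM with LIF and 523 and 525 TPM with OSM. The libraries of both cytokine groups thus lay well above those of -LIF-ESCs, without overlap. Mean levels were 241 ± 9.76 TPM (SD, n = 2), 556 ± 11.8 TPM and 524 ± 1.98 TPM. Its log2 fold change was 1.21 ± 0.04 (SE, adjusted p = 1.25e-05 in limma) with LIF and 1.12 ± 0.04 (SE, adjusted p = 1.47e-05) with OSM. Rescaled by the median ratio, these were 1.02 and 0.92, the latter below the limit of 1. In level, 1.17% of the genes tested lay above Mcl1 with LIF and 2.82% without cytokine.

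Bcl2l1, which encodes the anti-apoptotic protein Bcl-xL and, by alternative splicing, the shorter pro-apoptotic Bcl-xS, lies on the minus strand of chromosome 2 from 152780668 to 152831728. A value per gene does not separate these forms, and the same holds for the long and short forms of Mcl1. Bcl2l1 was at 26.0 and 25.7 TPM without cytokine, 31.2 and 29.7 TPM with LIF and 34.3 and 34.6 TPM with OSM. The groups did not overlap, but the differences were small. This gave a log2 fold change of 0.23 ± 0.05 (SE, adjusted p = 0.00691 in limma) with LIF and 0.40 ± 0.05 (SE, adjusted p = 0.000777) with OSM. The call with LIF was lost after rescaling by the median ratio (log2 fold change 0.04, adjusted p = 0.427) and with limma's voom on recovered reads (log2 fold change 0.10, adjusted p = 0.127), whereas the call with OSM held under both, at 0.21 after rescaling. Voom called 70.5% of all genes with LIF and 71.8% with OSM.

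Bcl2, the founding anti-apoptotic member, was barely expressed. It lies on the minus strand of chromosome 1 from 106538178 to 106714274. It was at 1.41 and 1.22 TPM without cytokine, 0.873 and 1.13 TPM with LIF and 1.24 and 1.49 TPM with OSM, from 75 to 166 reads per library. The LIF-ESC libraries were the lowest, and the OSM-ESC libraries overlapped those of -LIF-ESCs. The log2 fold change was -0.21 (95% interval -0.58 to 0.15, adjusted p = 0.242 in limma) with LIF and 0.03 (95% interval -0.33 to 0.40, adjusted p = 0.855) with OSM. With voom on recovered reads, Bcl2 was lower with LIF (log2 fold change -0.55, adjusted p = 0.0193). In every group Bcl2 was far below Bcl2l1.

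Bak1, the effector that forms pores in the mitochondrial outer membrane once released from Mcl1 and Bcl-xL, was lower in both cytokine groups. It lies on the minus strand of chromosome 17 from 27019810 to 27029009. It was at 116 and 119 TPM without cytokine, 83.3 and 85.1 TPM with LIF and 82.5 and 84.1 TPM with OSM. LIF-ESCs and OSM-ESCs overlapped each other and lay below -LIF-ESCs. Its log2 fold change was -0.48 ± 0.03 (SE, adjusted p = 0.000154 in limma) with LIF and -0.49 ± 0.03 (SE, adjusted p = 0.000136) with OSM. Exons of Ggnbp1 on the other strand cover 25.5% of its exon length, and reads there cannot be told apart without strand information.

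The other effectors moved in opposite directions, Bax up and Bok down. Bax, which forms the same kind of pore, was at 189 and 181 TPM without cytokine, 307 and 327 TPM with LIF and 358 and 346 TPM with OSM, with log2 fold changes of 0.77 and 0.92 against -LIF-ESCs (adjusted p = 7.29e-05 and 4.03e-05 in limma). Bok, a relative of both, was at 34.7 and 34.2 TPM without cytokine, 10.1 and 9.10 TPM with LIF and 10.7 and 11.3 TPM with OSM. Bok was lower without overlap, with log2 fold changes of -1.74 and -1.57 (adjusted p = 2.26e-05 and 2.9e-05 in limma).

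Hrk showed the largest change of the family. Hrk, or harakiri, is a BH3-only protein that binds Bcl2 and Bcl-xL and is best known from dying neurons. It lies on the plus strand of chromosome 5 from 118164648 to 118189478. Hrk was at 0.591 and 0.284 TPM without cytokine, 29.0 and 28.2 TPM with LIF and 24.0 and 22.1 TPM with OSM. It was thus near absent without cytokine and just below Bcl2l1 with LIF. Behind these values were 38 and 15 reads without cytokine, 1543 and 1442 reads with LIF and 1379 and 1523 reads with OSM. Mean TPM was 65.3-fold higher with LIF and 52.7-fold higher with OSM than without cytokine. The size of this fold depended on the control library, since the LIF-ESC mean was 48.3 times the level of -LIF-ESC replicate 1 and 101 times that of replicate 2, and the OSM-ESC mean 39.0 and 81.3 times. The ratio of pooled reads per depth had an exact 95% interval of 43.9 to 77.0 with LIF and 35.3 to 62.0 with OSM, for counting error only. On the log2(TPM + 1) scale the change was 4.37 ± 0.12 (SE, adjusted p = 7.94e-06 in limma) with LIF, place 29 from the highest among the 18556 genes, and 4.07 ± 0.12 (SE, adjusted p = 8.78e-06) with OSM, place 57. Hrk passed the filter on low values only through the groups in which it was high.

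Hrk and Mcl1 were the members whose rise reached 1 on the log2 scale in both cytokine groups, and bases before a RefSeq start of each are shown for this reason. These starts are at 118169764 for Hrk, which is inside the gene as GENCODE draws it, and at 95658721 for Mcl1. The Hrk bases end short of that start, before a GENCODE exon. Both are from GRCm38.p6, plus strand, read 5′ to 3′, with CG pairs in capitals. For Hrk the 234 bases of chr5:118169514-118169747 hold 20 CG pairs and are 63.7% G or C, and for Mcl1 the 250 bases of chr3:95658471-95658720 hold 26 and are 64.4% G or C, against a median of 52.4% over all promoters of the table.
Hrk: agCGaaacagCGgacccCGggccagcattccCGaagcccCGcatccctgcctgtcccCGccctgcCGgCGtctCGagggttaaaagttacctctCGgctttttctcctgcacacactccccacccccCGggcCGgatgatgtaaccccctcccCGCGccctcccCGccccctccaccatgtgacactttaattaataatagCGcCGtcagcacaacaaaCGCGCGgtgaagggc
Mcl1: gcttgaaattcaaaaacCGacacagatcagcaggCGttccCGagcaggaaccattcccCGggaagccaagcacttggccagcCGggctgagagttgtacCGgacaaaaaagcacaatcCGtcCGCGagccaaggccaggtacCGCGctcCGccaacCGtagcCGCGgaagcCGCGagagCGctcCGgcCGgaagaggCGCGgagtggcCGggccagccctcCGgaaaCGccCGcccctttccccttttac
The letters TTCNNNGAA, which read the same on both strands and to which STAT3, the factor downstream of LIF and OSM, is known to bind, were searched from 250 bases before to 50 bases after each start. A window was found for 9 of the 10 members, with 15 starts in all, and 0 of the 9 held these letters. Over the whole table, 9.55% of genes and 8.30% of windows of this length hold them. The absence of the letters from so short a window says nothing about binding elsewhere.

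Bid and Bad, the other BH3-only members with a rise, changed less. Bid, which links death receptors to mitochondria after cleavage by caspase 8, lies on the minus strand of chromosome 6 from 120891930 to 120916853. It was at 24.9 and 25.0 TPM without cytokine, 37.4 and 36.8 TPM with LIF and 33.5 and 36.0 TPM with OSM. Both cytokine groups lay above -LIF-ESCs, with log2 fold changes of 0.55 ± 0.05 (SE, adjusted p = 0.000314 in limma) and 0.46 ± 0.05 (SE, adjusted p = 0.000614). Exons of Bcl2l13 on the other strand cover 17.7% of the exon length of Bid. Bad, which survival kinases such as Pim1 keep inactive by phosphorylation, lies on the plus strand of chromosome 19 from 6941861 to 6951899. It was at 6.21 and 8.35 TPM without cytokine, 12.5 and 11.6 TPM with LIF and 11.8 and 13.0 TPM with OSM. The -LIF-ESC libraries were the lowest but also differed the most from each other. The log2 fold change of Bad was 0.67 ± 0.14 (SE, adjusted p = 0.0076 in limma) with LIF and 0.70 ± 0.14 (SE, adjusted p = 0.00618) with OSM. Exons of Gpr137 on the other strand cover 20.5% of its exon length, and its TPM did not give whole reads with the exon length used here.

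Bcl2l11, Bmf and Bik were lower in both cytokine groups. Bcl2l11 encodes Bim, a BH3-only protein that binds all anti-apoptotic members and whose gene is a known FoxO target. It lies on the plus strand of chromosome 2 from 128126038 to 128162547. It was at 14.5 and 16.5 TPM without cytokine, 9.33 and 9.60 TPM with LIF and 10.7 and 8.85 TPM with OSM. This gave a log2 fold change of -0.65 ± 0.11 (SE, adjusted p = 0.00317 in limma) with LIF and -0.62 ± 0.11 (SE, adjusted p = 0.00397) with OSM. Bmf, which is held at the actin-bound myosin motors until cells detach, lies on the minus strand of the same chromosome from 118528757 to 118549687. It was at 15.8 and 15.7 TPM without cytokine, 10.3 and 9.73 TPM with LIF and 8.10 and 7.35 TPM with OSM. The 3 groups did not overlap, with -LIF-ESCs highest and OSM-ESCs lowest. The log2 fold change of Bmf was -0.61 ± 0.07 (SE, adjusted p = 0.000859) with LIF and -0.94 ± 0.07 (SE, adjusted p = 0.000164) with OSM. Bik, a BH3-only protein of the endoplasmic reticulum, lies on the plus strand of chromosome 15 from 83526862 to 83544634. It was at 4.94 and 5.00 TPM without cytokine, 2.01 and 1.53 TPM with LIF and 1.80 and 1.14 TPM with OSM, from 22 to 89 reads per library. It was the member that fell the most, with a log2 fold change of -1.11 ± 0.17 (SE, adjusted p = 0.00249) with LIF and -1.28 ± 0.17 (SE, adjusted p = 0.00142) with OSM.

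**Figure D2:**
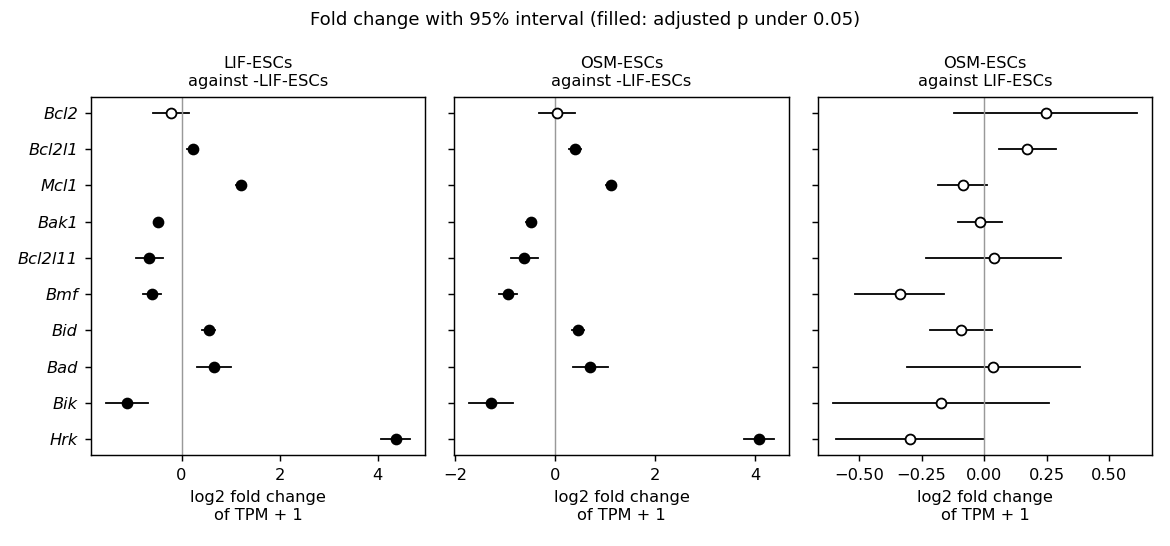
Log2 fold change of TPM + 1 for each member in the 3 comparisons, as a point with its 95% interval from limma, filled where the adjusted p was under 0.05. The horizontal scale differs between panels. In both comparisons with -LIF-ESCs 9 of 10 points are filled, and between OSM-ESCs and LIF-ESCs none is.

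OSM-ESCs were then set against LIF-ESCs directly. None of the 10 members passed the test at an adjusted p under 0.05 in limma, against 0.593% of all genes tested, 0.463% as higher and 0.129% as lower. The libraries of 6 members did not overlap between these groups, against 47.1% of all genes tested. An unadjusted p under 0.05 was found for 3 members, 1 higher and 2 lower, against 15.3% of all genes, 9.8% higher and 5.5% lower. Bmf had a log2 fold change of -0.34 (95% interval -0.52 to -0.16, unadjusted p = 0.00422, adjusted p = 0.13 in limma) without overlap of the libraries. Hrk had a log2 fold change of -0.30 (95% interval -0.59 to -0.00115, unadjusted p = 0.0494, adjusted p = 0.326) and Bcl2l1 of 0.17 (95% interval 0.06 to 0.29, unadjusted p = 0.0113, adjusted p = 0.188), also without overlap. With voom on recovered reads these 3 were called, Bmf with an adjusted p of 0.00716, Hrk of 0.000955 and Bcl2l1 of 0.0432, and by that test 7.82% of all genes were, 5.26% as higher and 2.56% as lower. For the other members the 95% interval of the difference is on the log2(TPM + 1) scale, which understates fold changes of low genes such as Bcl2 and Bik. It was -0.18 to 0.01 for Mcl1, -0.10 to 0.07 for Bak1, -0.22 to 0.03 for Bid, -0.23 to 0.31 for Bcl2l11, -0.31 to 0.38 for Bad, -0.60 to 0.26 for Bik and -0.12 to 0.61 for Bcl2. Of the 19 fibroblast markers tested, 6 were called in this comparison, all higher with OSM. Of the 12 embryonic stem cell markers 1, Nr0b1, was called, as lower. None of the 6 trophectoderm and epithelium markers or the 6 primitive endoderm markers tested was called.

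The family's RNA was divided by role, as a description without a test. The 3 anti-apoptotic members took 59.0% ± 0.236 of the summed TPM of the 10 members without cytokine (SD, n = 2), 76.2% ± 0.308 with LIF and 76.4% ± 0.0744 with OSM. Bak1 took 25.9% ± 0.352, 10.9% ± 0.362 and 11.4% ± 0.121, and the 6 BH3-only members 15.2% ± 0.117, 12.8% ± 0.0546 and 12.2% ± 0.195. The summed TPM of all 10 was 444 and 464 without cytokine, 780 and 761 with LIF, and 731 and 734 with OSM. While its share fell, the BH3-only sum rose, from 67.0 and 70.8 TPM to 100 and 97.4 with LIF and 90.0 and 88.4 with OSM. Without Mcl1 the anti-apoptotic share was 12.7%, 14.6% and 17.2% and the Bak1 share 55.0%, 39.2% and 40.0%, in the same directions, whereas the BH3-only share turned, at 32.3%, 46.1% and 42.8%. When Bax, Bok and the other core genes of the family were added, the anti-apoptotic share was 35.3%, 49.1% and 46.7%. The effector share was then 43.0%, 33.6% and 36.4%, a smaller fall than that of Bak1 among the 10 members. Within the BH3-only group, Hrk made up 0.401% to 0.882% of the summed TPM without cytokine, 28.8% to 28.9% with LIF and 25.0% to 26.7% with OSM. Bid held 35.3% to 40.7% in every library, and Bmf 22.2% and 23.6% without cytokine and between 8.31% and 10.3% in the other libraries.

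**Figure D3:**
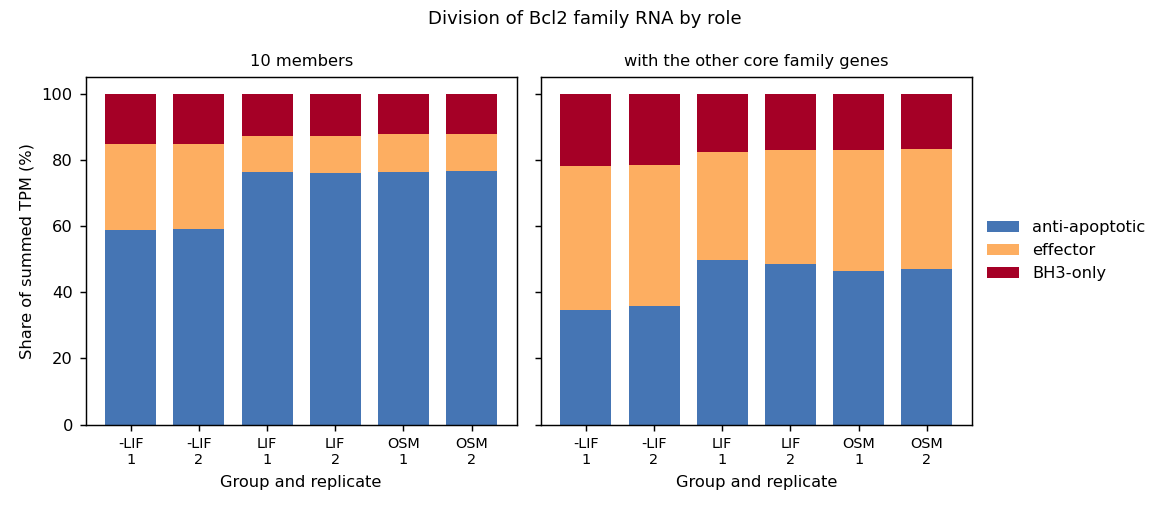
Share of summed TPM, in percent, taken by anti-apoptotic, effector and BH3-only genes in each of the 6 libraries, for the 10 members and after adding Bax, Bok, Bcl2l2, Bcl2l10, Bcl2a1d, Bbc3 and Pmaip1. The anti-apoptotic share of the 10 members is 59.0% in -LIF-ESCs and above 76% in the other 4 libraries.

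In order of level, Mcl1 and Bak1 held the top places in every group. The ratio of their means was 2.05 without cytokine, 6.61 with LIF and 6.29 with OSM. In -LIF-ESCs they were followed by Bcl2l1, Bid, Bmf, Bcl2l11, Bad, Bik, Bcl2 and Hrk, of which Bmf and Bcl2l11 overlapped. In LIF-ESCs the next were Bid, Bcl2l1, Hrk, Bad, Bmf, Bcl2l11, Bik and Bcl2, with no neighbours overlapping. In OSM-ESCs Bcl2l11 and Bmf changed places, and Bid overlapped Bcl2l1 and Bik overlapped Bcl2. Hrk thus stood last without cytokine and in place 5 with either cytokine.

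Among 15 further genes of the family or related to it, 10 were tested, 3 were below the filter and 2 were not analysed here. Of the 10, 4 were higher and 6 lower with LIF, and 4 were higher and 5 lower with OSM, with medians of -0.16 and -0.20 on the log2 scale. The shares over all genes tested were 42.2% higher and 25.9% lower with LIF, and 42.9% and 25.4% with OSM. Bnip3, a mitochondrial protein induced by hypoxia, had log2 fold changes of -1.24 and -1.75 (adjusted p = 9.32e-05 and 3.05e-05 in limma). The BH3-only genes induced by p53 differed from each other. Pmaip1, or Noxa, whose protein binds Mcl1, was at 42.3 and 43.5 TPM without cytokine, 61.6 and 61.6 TPM with LIF and 68.2 and 62.3 TPM with OSM, and rose in both comparisons (log2 fold changes 0.51 and 0.59). Bbc3, or Puma, was at 60.5 and 56.5 TPM, 52.9 and 50.6 TPM, and 52.8 and 53.7 TPM, with log2 fold changes of -0.17 (adjusted p = 0.0257) and -0.13 (adjusted p = 0.0602).

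Downstream of the family, the list of the apoptosome, caspases and their inhibitors held 18 genes, all tested. With LIF 6 were higher and 6 lower, and with OSM 7 were higher and 7 lower, with medians of -0.05 and -0.09. Over all genes tested, 68.1% were called in either direction with LIF and 68.3% with OSM. Casp6, which encodes a protease of the caspase family, was at 5.84 and 6.22 TPM without cytokine, 2.44 and 2.30 TPM with LIF and 2.06 and 2.13 TPM with OSM. Casp6 was lower without overlap, with log2 fold changes of -1.06 and -1.18 (adjusted p = 0.000287 and 0.000189 in limma).

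Upstream, 10 genes of death receptors and their signalling were tested, of which 6 were higher and 2 lower with LIF, and 6 and 2 with OSM. The share of all genes called in either direction was 68.1% and 68.3%. Ripk1, a kinase at the receptor complex, had log2 fold changes of 1.12 and 1.24, and the receptor Tnfrsf1a of 0.90 and 1.24. Casp8, which cleaves Bid, was at 11.4 and 12.5 TPM without cytokine, 4.68 and 5.06 TPM with LIF and 7.56 and 6.04 TPM with OSM, with log2 fold changes of -1.14 and -0.73.

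Of 25 regulators and partners of the members, 14 were higher and 7 lower with LIF, and 15 were higher and 7 lower with OSM, with medians of 0.21 and 0.25. Among all genes tested, 42.2% were higher and 25.9% lower with LIF, and 42.9% and 25.4% with OSM. Pim1, a kinase gene activated by STAT3 whose product phosphorylates Bad, was at 121 and 127 TPM without cytokine, 380 and 377 TPM with LIF and 410 and 403 TPM with OSM. Its log2 fold changes were 1.60 and 1.71. Ddit3 (Chop), a stress factor known to act on Bcl2l11 transcription, had log2 fold changes of 1.90 and 2.15, and Foxo3, another such factor, of 1.22 and 1.07. Stat3 itself had 0.97 and 1.02. Jun was lower, with log2 fold changes of -1.73 and -1.52, as was Foxo4, with -0.97 and -1.03. Between OSM-ESCs and LIF-ESCs, 1 of these 25 genes was called. Pim2 was at 56.0 and 56.0 TPM with LIF and 73.6 and 72.3 TPM with OSM, 0.37 higher on the log2 scale (adjusted p = 0.03 in limma), and was named after its values were seen. None of the other lists' 38 genes was called in that comparison, in which 11 of them had an unadjusted p under 0.05. Of all genes tested, 0.593% were called there and 15.3% had an unadjusted p under 0.05.

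**Figure D4:**
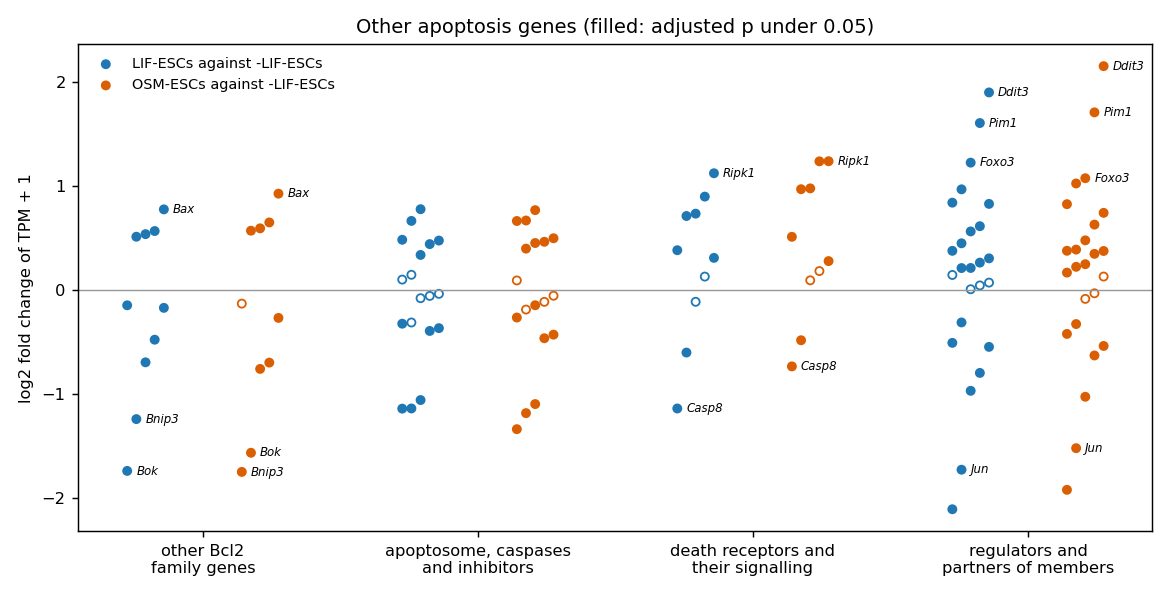
Log2 fold change of TPM + 1 against -LIF-ESCs for the tested genes of 4 lists, in LIF-ESCs and OSM-ESCs, with a point for each gene, filled where the adjusted p was under 0.05. Jun lies at -1.73 and -1.52 and Ddit3 at 1.90 and 2.15.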

How the data were processed

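RNA-seq of mESCs was analysed from 6 libraries, 2 in each of 3 groups. From poly-A RNA, the authors trimmed reads with Trimmomatic per the labels, aligned them to mm10 with Hisat2, counted them with featureCounts and deposited TPM values. The annotation, strand setting, handling of reads that match several genes and step from counts to TPM are not given in the sources used here. The authors tested counts with DESeq2, which was not repeated here. The deposited values are TPM, and reads recovered from them were tested with voom only.

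From these values, log2(TPM + 1) was fitted with limma 3.58.1 in R 4.3.3 (lmFit, eBayes with a trend) for genes that reached 1 TPM in 2 or more libraries. All groups were fitted together (3 residual degrees of freedom, 5.33 with the prior), without a replicate block, with Benjamini-Hochberg adjustment over all genes tested. Calls used an adjusted p under 0.05. Exon lengths and coordinates came from GENCODE M21 (GRCm38), in which 99.4% of symbols were found once. Dividing each TPM by the worth of 1 read gave reads that were whole within 0.02 for 95.4% of values. All members but Bad gave whole reads. Voom on these reads, and shares with other core family genes, were alternatives chosen after seeing the data. Intervals on reads cover counting error only. The steps were tested on simulated data.

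The members and lists were chosen with earlier results of these data known. Of the lists, genes called in any comparison whose change also reached 1 on the log2 scale were named, at most the 3 highest and 3 lowest per list and comparison, and Bax, Bok, Bbc3 and Pmaip1 always. Some genes that this rule names are not reported here. Summaries used Python 3.11.15 with scipy 1.17.1, and plots matplotlib 3.10.9.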

Additional observations from a re-analysis of the deposited data

How the results depend on the processing

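Each member's log2 fold change was recomputed with rescaled libraries, without mitochondrial genes, with a pseudocount of 0.1, with the filter at 5 TPM or dropped, with a constant prior variance, with pairs of groups fitted alone, with a replicate block, by voom on recovered reads and with each library left out. Of 444 such values, 429 kept their direction and their side of an adjusted p of 0.05, 2 lost the call and 4 gained it, and these 6 are the values for Bcl2l1, Bcl2, Bmf and Hrk under rescaling or voom given above. The other 9 turned direction and were not called in any setting. Direction could not turn where only the filter, prior variance, block or groups fitted changed, or where a library outside the comparison was left out. Such values could only gain or lose the call. Bcl2 in OSM-ESCs against -LIF-ESCs was -0.0811 after rescaling, -0.0767 with voom and, with 1 library left out, between -0.0439 and 0.109. Between OSM-ESCs and LIF-ESCs, values with 1 library left out ran from -0.0312 to 0.000181 for Bak1, from -0.0870 to 0.163 for Bcl2l11, from -0.0274 to 0.101 for Bad and from -0.368 to 0.0223 for Bik. Where a library was left out, the lone library of its group was assumed to vary like the others. Bcl2 and Bik did not pass the filter of 5 TPM.

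Counts depended on the rule. Where the change had to reach 1 on the log2 scale, 2 members were higher and 1 lower in each comparison with -LIF-ESCs. Between OSM-ESCs and LIF-ESCs, 1 member was higher and 2 lower at an unadjusted p under 0.05, and likewise with voom. The replicate numbers did not pair the samples, as the deviations of same-numbered libraries correlated at -0.04, -0.02 and 0.03 across genes, and with the replicate block 5 members were higher and 4 lower in each comparison with -LIF-ESCs and 0 were called between the cytokine groups.

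The share of summed TPM depended on what was summed. For -LIF-ESCs, LIF-ESCs and OSM-ESCs, the anti-apoptotic share was 61.1%, 75.7% and 76.3% as reads not divided by length, 12.7%, 14.6% and 17.2% without Mcl1 and 35.3%, 49.1% and 46.7% with the other core family genes. The BH3-only share was 20.8%, 16.8% and 15.9%, then 32.3%, 46.1% and 42.8%, and 21.7%, 17.3% and 16.9%. Depth limits Bik, Bcl2 and, in -LIF-ESCs, Hrk, which rest on at most 166 reads per library.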
